A study of Arabidopsis thaliana with 6 samples.

Results

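Among leaf transcripts of the Arabidopsis thaliana mutant pho1, 149 of the 22810 probe sets on the array formed a group that lay moderately below the wild type. The array reads each transcript with a set of short probes, called a probe set, that yields 1 signal. A member had exactly 1 gene in the platform annotation, a mean signal of 100 or more in wild type, a highest pho1 signal below the lowest wild-type signal, and a ratio of group means, each with 10 added, above 0.33 and at most 0.67. The 149 probe sets belong to 148 genes. Members were chosen by their pho1 and wild-type signals on all 6 arrays, so the differences between these groups are given below as a description, without a test of their own, and support nothing about the members.

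The pho1 group held 3 arrays of rosette leaves of the pho1 mutant, an EMS (chemically induced) mutant in the Col-2 background, and the wild-type group held 3 arrays of rosette leaves of Col-2. All plants were untreated and at growth stage 3.90. Their medium was MS salts in 0.8% agar, sweetened with 1% sucrose, and they were kept at 24 °C, a humidity of 80% and 16 h of light a day. Replicates are numbered 1 to 3 in each group. Whether these were separate plants is not stated, so the spread between arrays may be partly technical. Nor is it stated whether the mutant line carries other EMS changes.

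PHO1 is a phosphate exporter that loads phosphate from root cells into the xylem, and shoots of pho1 plants are short of phosphate. Phosphate enters leaf metabolism through ATP, sugar phosphates and membrane phospholipids, and photosynthesis in the chloroplast depends on its exchange across the plastid envelope. Leaf growth depends on loosening and rebuilding of the cell wall. Members are known from both processes. A lower signal from a whole leaf can come from fewer cells of a type or from less RNA per cell, and these cannot be told apart here.

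Array medians ranged from 41.4 to 46.6, and their trimmed means were alike at 100.01. The leaf genes RCA, SBPASE and LHCB4.2 had signals of at least 1194.5 on every array, while the root peroxidase genes AT5G17820 and AT3G01190 stayed at or below 8. Only 8 of 29 marker loci had a named probe set, none of them for flower or phloem companion cells. The root gene PYK10, in the order of replicates 1, 2 and 3, had 278, 571 and 457 in pho1 leaves, against 190.5, 173 and 398 in wild-type leaves, a difference that did not pass the test over all probe sets (limma adjusted p = 0.354), and its part in the results was not tested. Of the leaf genes, SBPASE had 2299.5, 1503 and 1194.5 in pho1 leaves, against 2421, 2573 and 2131 in wild-type leaves (log2 difference -0.56, limma adjusted p = 0.392), and these groups overlapped. For RCA and LHCB4.2 the log2 differences were not below 0, at 0.03 and 0.28 (limma adjusted p = 0.979 and 0.790). The trichome gene TRY had 25.7, 12 and 25.5 in pho1 leaves, against 26.5, 38.4 and 38.4 in wild-type leaves, without overlap (log2 difference -0.54, limma adjusted p = 0.348). None of SBPASE, RCA, LHCB4.2 and TRY passed the test, and their part in the results was not tested. Both replicate 1 arrays deviated from their group means in a like way (correlation of deviations 0.42 across probe sets). Both replicate 3 arrays did so almost as much (0.386), so this value alone does not single out replicate 1. Results are also given for replicates 2 and 3 on their own.

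Of the 13513 probe sets with 1 gene, 3292 had a wild-type mean of 100 or more. All 3 pho1 values lay below all 3 wild-type values in 461 of these, or 14.0%. Of the 461, 311 had a ratio above 0.67, 149 were members and 1, AT1G73600, had a ratio of 0.33 or less. Ratios of the members ran from 0.335 to 0.67 with a median of 0.601, against a median of 0.923 over the 3292. The members crowd towards the upper bound, with 75 above 0.6, 55 from 0.5 to 0.6 and 19 at 0.5 or less. Just inside the lower bound were AT1G52870 (0.335), AT5G53050 (0.341) and AT1G78020 (0.35), and the only probe set outside it was AT1G73600 at 0.119. Just inside the upper bound were AT1G67660 (0.668), AT3G20820 (0.669) and AT1G51110 (0.67), and just outside were AT4G38710 (0.671), AT4G25260 (0.674) and AT3G06980 (0.675), so this bound cuts through a continuous range.

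**Figure D1:**
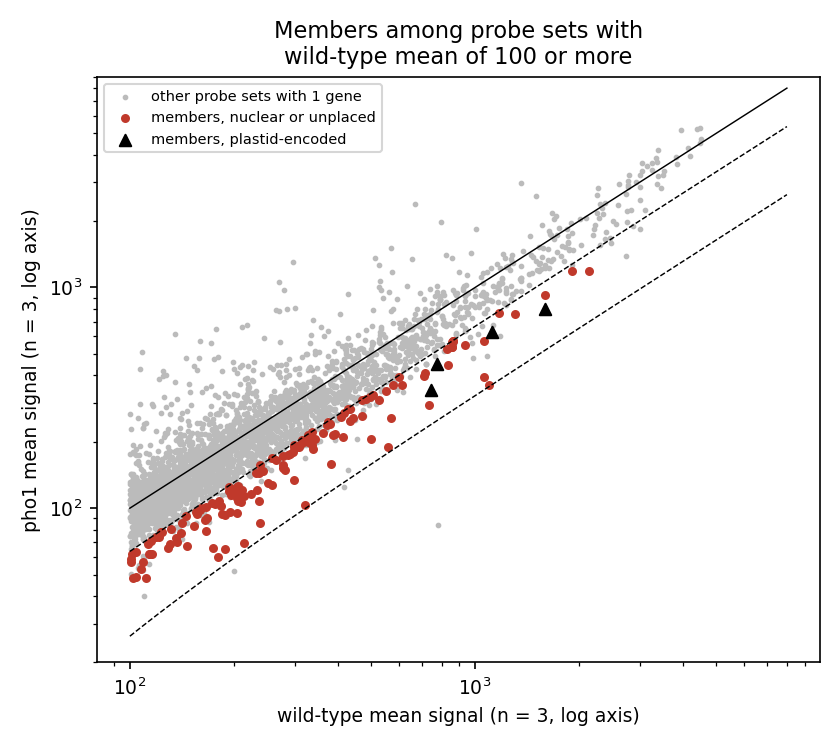
Mean signal of each probe set with 1 gene and a wild-type mean of 100 or more, with pho1 (n = 3) on the vertical log axis and wild type (n = 3) on the horizontal log axis. The solid line marks equal means and the dashed lines the ratio bounds of 0.33 and 0.67. The 149 members lie between the dashed lines, and grey points there are probe sets whose groups overlap.

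The gaps between groups were narrow for many members. The highest pho1 value was 53.3% to 99.8% of the lowest wild-type value, with a median of 83.9%, and in 50 members it was 90% or more. In a test over all 15922 probe sets bright enough to be tested (limma, adjusted p under 0.05), 18 of the 149 members passed as lower in pho1, and 0.345% of all tested probe sets did. The rule used the same contrast, so nothing is read from this count. The count was 70 with the replicate number as a block, where 1.69% of probe sets passed, and 136 in replicates 2 and 3 on their own, where 9.26% passed. Leaving out wild type replicate 1, 2 or 3 gave 33, 1 and 6 members, where 1.30%, 0.0188% and 0.0942% of all tested probe sets passed. Leaving out pho1 replicate 1, 2 or 3 gave 79, 1 and 0 members, where 1.76%, 0.0314% and 0.0251% passed. In the last of these limma fits 107 members had an unadjusted p under 0.05. The share over all probe sets at this threshold is not given, so nothing is read from that number.

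A gene symbol was listed for 26 members, and the other 123 carry only a locus name and are given no role here. The 26 were sorted by known role after the members were known. They comprise 4 genes of the plastid genome, 4 nuclear genes for assembly of photosynthetic complexes, 5 nuclear genes for plastid metabolism and transport, 4 for the cell wall, 4 for other metabolism and 4 for regulation, protein maturation and signalling. DAL1, the remaining one, is given no role. In this order of replicates 1, 2 and 3, which holds for all signals below, it had 212, 211 and 188 in pho1 leaves, against 233, 371 and 342 in wild-type leaves.

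The plastid-encoded members were ndhE, ndhJ and ndhK, which encode subunits of the chloroplast NADH dehydrogenase-like (NDH) complex of cyclic electron flow, and psbD, which encodes the D2 reaction centre protein of photosystem II. The signal of ndhE was 167, 453 and 405 in pho1 leaves, against 923, 669.5 and 639 in wild-type leaves. That of ndhJ was 170.5, 1011 and 709 in pho1 leaves, against 1072, 1176.5 and 1112 in wild-type leaves. For ndhK the values were 90.2, 725 and 539.6 in pho1 leaves, against 739, 854 and 739.5 in wild-type leaves. In all 3 genes pho1 replicate 1 stood far below the other pho1 arrays, and for ndhJ and ndhK pho1 replicate 2 came close to wild type. The same held for psbD, with 198, 1442 and 767 in pho1 leaves, against 1757, 1572 and 1465 in wild-type leaves.

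The low replicate 1 value was shared by plastid-encoded genes at large. Over the 69 probe sets of plastid genes, the median signal was 380 in pho1 replicate 1, 1427 in pho1 replicate 2 and 1209 in pho1 replicate 3, against 1612.5, 1572 and 1253 in wild-type replicates 1, 2 and 3. Without both replicate 1 arrays the ratio was 0.661 for ndhE, 0.729 for psbD, 0.754 for ndhJ and 0.796 for ndhK, so only ndhE stayed under the upper bound of 0.67. Among all 10 ndh genes with a named probe set, 9 had a ratio below 1 and 8 had one in replicates 2 and 3. Over all 69 plastid probe sets, the ndh genes included, 55 and 36 did. All pho1 values lay below all wild-type values in 4 of the 10 ndh genes and in 6 of the 69 plastid probe sets. The share was 7.07% of all 13513 probe sets with 1 gene. The fourth ndh gene without overlap, ndhF, had a wild-type mean of 34.9 and so was too dim to be a member. The ratios of the 10 ran from 0.467 to 1.03, and from 0.661 to 1.04 in replicates 2 and 3. At the top over all arrays was ndhC, the neighbour of ndhK in the plastid genome, with 2262.5, 2105 and 1507 in pho1 leaves, against 2054.5, 2082 and 1539.8 in wild-type leaves and groups that overlapped. The ndh genes were singled out after their values had been seen.

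**Figure D2:**
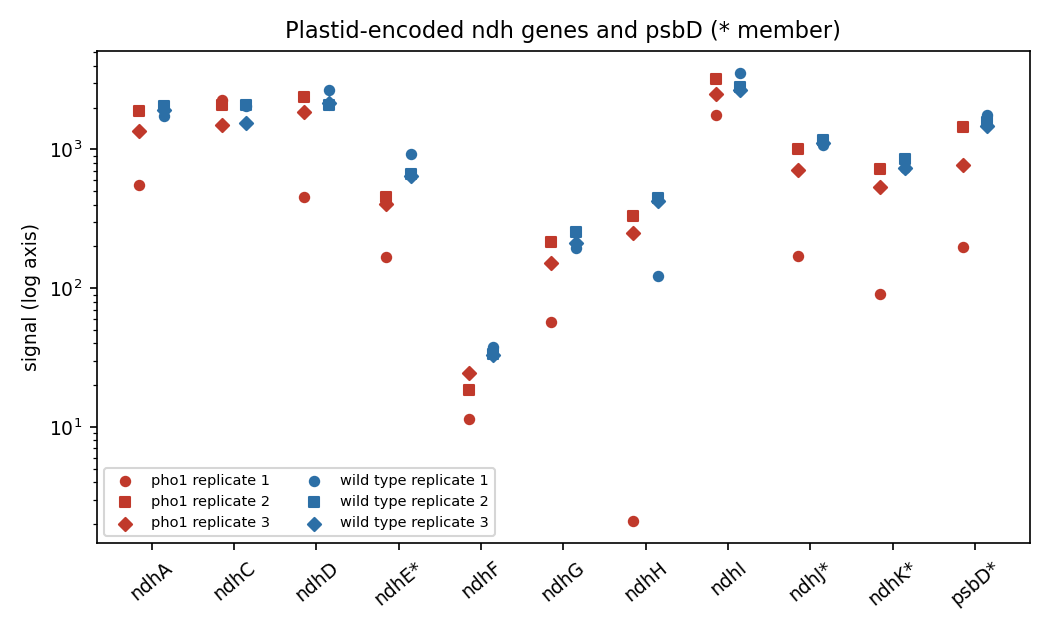
Signal on a log axis of the 10 plastid-encoded ndh genes and psbD on each array, pho1 left of wild type for each gene, with symbols for the replicate numbers. Members carry an asterisk. Replicate 1 of pho1 (round red points) is the lowest pho1 value in every gene but ndhC, and ndhC shows the groups side by side.

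Nuclear genes that help to build photosynthetic complexes showed another pattern over the arrays than the plastid-encoded members. CRR42, a factor for accumulation of the NDH complex, had 141, 84.7 and 52.4 in pho1 leaves, against 235, 187 and 146 in wild-type leaves. Cpn60beta4, a chaperonin subunit known for folding the NDH subunit NdhH, had 149.9, 133 and 92.3 in pho1 leaves, against 204, 229 and 178 in wild-type leaves. Unlike the plastid genes, both had their highest pho1 value in replicate 1 and their lowest in replicate 3. CCB3, which takes part in cofactor attachment to cytochrome b6f, had 161, 91.1 and 101 in pho1 leaves, against 225, 199.7 and 185 in wild-type leaves. HCF101, a scaffold protein that delivers iron-sulfur clusters to photosystem I, had 394, 233 and 219 in pho1 leaves, against 455, 431 and 419 in wild-type leaves. In CCB3 and HCF101 too, pho1 replicate 1 was nearest to the wild type. Median differences of these 4 genes on the scale of log2(signal + 10) were -0.44, -0.96 and -0.89 in replicates 1, 2 and 3, against -2.74, -0.22 and -0.64 for the 4 plastid-encoded members. Over all 145 nuclear or unplaced members they were -0.46, -0.90 and -0.90, so the pattern is not particular to these 4 genes.

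Enzymes and a transporter of the chloroplast made up the next group. LrgB, also known as PLGG1, exchanges glycolate and glycerate across the plastid envelope in photorespiration, and its signal was 1013, 687.5 and 584 in pho1 leaves, against 1228, 1492 and 1207 in wild-type leaves. AOR, an alkenal/one oxidoreductase that detoxifies reactive carbonyls, had 674, 457 and 587 in pho1 leaves, against 1134, 1096 and 962 in wild-type leaves. The groups lay well apart for AOR, whose highest pho1 value was 70.0% of the lowest wild-type value. THIC makes the pyrimidine part of thiamin and had 898, 1145 and 739 in pho1 leaves, against 1706, 1691 and 1388 in wild-type leaves. PWD, the phosphoglucan, water dikinase, adds phosphate to starch ahead of its breakdown, with 381, 463 and 336 in pho1 leaves, against 599, 653 and 555 in wild-type leaves. HISN5B, an enzyme of histidine synthesis, had 102, 85.2 and 90.4 in pho1 leaves, against 128, 166 and 142 in wild-type leaves, with the highest ratio of the 5. Ratios in this group ran from 0.542 to 0.661.

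Cell wall genes included the lowest ratio among members with a symbol. EXPA8, an expansin that loosens walls during cell growth, had 698, 254 and 229.6 in pho1 leaves, against 987, 1296 and 893 in wild-type leaves, a mean of 394 ± 264 in pho1 and 1059 ± 211 in wild type (SD, n = 3 each). Its pho1 replicate 1 value was far above the other pho1 values, and its ratio was 0.378 over all arrays and 0.228 in replicates 2 and 3. The related EXPB3 had 68.6, 83.5 and 46.6 in pho1 leaves, against 117, 128 and 142 in wild-type leaves. GH9C2, a glycosyl hydrolase of family 9, which holds cellulases, had 191.5, 214 and 228 in pho1 leaves, against 263, 498 and 481 in wild-type leaves. TBL26 belongs to the TRICHOME BIREFRINGENCE-LIKE family, known for acetylation of wall polysaccharides, and had 80.3, 92.9 and 63.6 in pho1 leaves, against 100.2, 202 and 196 in wild-type leaves. In both GH9C2 and TBL26 wild type replicate 1 was far below the other wild-type arrays and nearest to the pho1 values. Of 38 tested probe sets of the cell wall list, 1 passed as higher in pho1 and 0 as lower (limma, adjusted p under 0.05); the list's median difference was 0.01, against -0.02 over all tested probe sets. At an unadjusted p under 0.05, 5 were lower and 1 higher, and the share over all tested probe sets at this threshold is not given. The list holds EXPA8, EXPB3 and TBL26, which the rule chose for being lower in pho1. Nothing is therefore read from these counts.

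Among other enzymes, PMEAMT stood out by its separation. PMEAMT is a methyltransferase on the way to phosphatidylcholine. Its signal was 305.5, 334 and 244 in pho1 leaves, against 684, 899 and 626 in wild-type leaves. Its mean was 294 ± 46.2 in pho1 and 736 ± 144 in wild type (SD, n = 3 each). Its highest pho1 value was 53.3% of the lowest wild-type value, the widest gap of all members. AAH, allantoate amidohydrolase, releases nitrogen from purine breakdown products and had 101.5, 60.0 and 40.4 in pho1 leaves, against 191, 129 and 118 in wild-type leaves. ALDH6B2, an aldehyde dehydrogenase, had 195, 217.5 and 184 in pho1 leaves, against 415, 276 and 293 in wild-type leaves. Here wild type replicate 1 was the highest of all arrays, and the ratio without both replicate 1 arrays was 0.714, above the upper bound. BGLU40, of the beta-glucosidase family, had 272, 143 and 156 in pho1 leaves, against 309.9, 317 and 278 in wild-type leaves, with pho1 replicate 1 next to the wild-type values.

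The last group with symbols acts in regulation, protein maturation and signalling. HAT2, a homeodomain-leucine zipper transcription factor induced by auxin, had 174.5, 82.1 and 66.5 in pho1 leaves, against 242.5, 278 and 190.1 in wild-type leaves. KELP, a transcriptional coactivator, had 104, 89.4 and 128 in pho1 leaves, against 155, 249 and 226 in wild-type leaves. In HAT2 pho1 replicate 1 was nearest to wild type, whereas in KELP the nearest values were pho1 replicate 3 and wild type replicate 1. RALFL24 belongs to the RALF family of secreted signalling peptides and had 119, 110.4 and 75.6 in pho1 leaves, against 155, 203 and 141 in wild-type leaves. MAP1D, a methionine aminopeptidase that trims the first residue of organelle proteins, had 204, 160.4 and 151 in pho1 leaves, against 288.5, 295 and 251 in wild-type leaves.

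**Figure D3:**
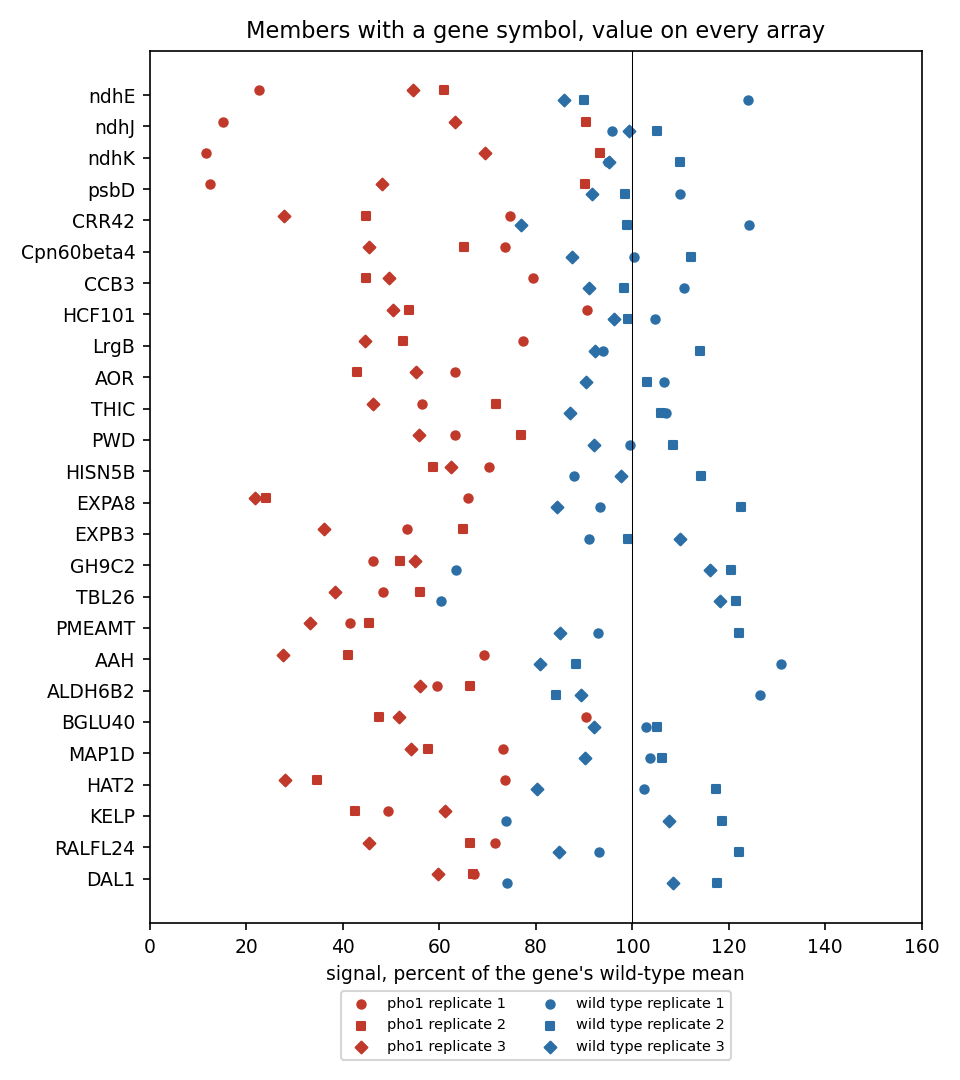
Signal of the 26 members with a gene symbol on each array, as a percent of the gene's own wild-type mean, with pho1 (red) drawn above wild type (blue) in each row. Plastid-encoded genes are at the top. Their pho1 replicate 1 values lie far to the left, while for EXPA8, HCF101 and BGLU40 pho1 replicate 1 is the pho1 value nearest to wild type.

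Among members known by locus name only, AT1G52870 had the lowest ratio of all, with 488, 280.2 and 318 in pho1 leaves, against 1382.5, 1016 and 901 in wild-type leaves, a mean of 362 ± 111 in pho1 and 1099.8 ± 251 in wild type (SD, n = 3 each). AT5G53050 had 165, 78.6 and 64.8 in pho1 leaves, against 429, 287 and 246 in wild-type leaves. AT1G78020 had 124, 244 and 200.4 in pho1 leaves, against 298, 726 and 655 in wild-type leaves. In AT1G52870 and AT5G53050 replicate 1 was the highest array of each group, and in AT1G78020 it was the lowest of each. AT1G78995 had 132, 45.9 and 30.8 in pho1 leaves, against 266.5, 225 and 149.5 in wild-type leaves. AT4G12830 had 90.4, 52.3 and 38.4 in pho1 leaves, against 149, 197 and 195 in wild-type leaves. AT1G22160 had 88.9, 50.1 and 57.2 in pho1 leaves, against 252, 172 and 143 in wild-type leaves. All 3 had their highest pho1 value in replicate 1, and AT4G12830 had its lowest wild-type value there too. AT5G02230 had 146, 50.8 and 60.7 in pho1 leaves, against 294, 216 and 204 in wild-type leaves. AT3G02910 had 64.1, 81.9 and 52.4 in pho1 leaves, against 202, 167 and 153 in wild-type leaves. AT3G14067 had 226, 205 and 184 in pho1 leaves, against 554, 422 and 517 in wild-type leaves. The 3 pho1 values of AT3G14067 lay close together, and the highest was 53.6% of the lowest wild-type value. AT2G36145 had 256, 128 and 89.4 in pho1 leaves, against 404, 394 and 349.5 in wild-type leaves, with pho1 values spread more widely than wild-type values.

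Of the 8 members with the brightest wild-type signals, psbD, THIC, LrgB, ndhJ and AT1G52870 are given above, and AT1G11860, AT2G37220 and AT5G51110 follow. Signals of different probe sets cannot be set against each other as transcript levels, so these are given gene by gene. AT1G11860 had 1601, 1017 and 941 in pho1 leaves, against 1944, 2366 and 2110.3 in wild-type leaves. AT2G37220 had 1365, 1257 and 933 in pho1 leaves, against 2088, 2108 and 1532 in wild-type leaves. AT5G51110 had 949, 768 and 582.5 in pho1 leaves, against 1431.5, 1130.5 and 959 in wild-type leaves. In AT5G51110 pho1 replicate 1 almost reached wild type replicate 3, and in AT1G11860 pho1 replicate 1 was well above the other pho1 values. Nearest to the upper bound, AT1G67660 had 212, 186 and 110.2 in pho1 leaves, against 267, 279 and 229.9 in wild-type leaves. AT3G20820 had 818, 518 and 384 in pho1 leaves, against 878, 885 and 826 in wild-type leaves. AT1G51110 had 180.1, 129.9 and 160.3 in pho1 leaves, against 277, 219.6 and 220.1 in wild-type leaves. None of these 3 showed an overlap, as the rule demands, but pho1 replicate 1 of AT3G20820 lay within 10 signal units of the lowest wild-type value. Over all 149 members, wild-type means ran from 101 to 2140 with a median of 277, and pho1 means from 48.1 to 1186 with a median of 152. A wild-type mean under 200 was found in 50 members, 200 to 500 in 68, 500 to 1000 in 21 and 1000 or more in 10.

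The size of the difference depended on the replicate number. On the scale of log2(signal + 10), the median difference of the members was -0.47 in replicate 1, -0.9 in replicate 2 and -0.9 in replicate 3. In 117 of the 149 members, or 78.5%, the fall from wild type to pho1 was smallest in replicate 1. The share with the smallest fall there was 59.2% among the 311 probe sets that met the rest of the rule with a ratio above 0.67. It was 46.9% among all 3292 named bright probe sets, which include some that do not fall in pho1. The pho1 value was highest in replicate 1 in 107 members and lowest in replicate 3 in 104, which is 71.8% and 69.8%, against 47.5% and 38.9% of the 3292. In wild type, replicate 2 was the highest array in 87 members, or 58.4%, against 28.4% of the 3292. These shares come from the arrays that chose the members and are a description. The difference was at least 0.5 below 0 in every replicate number in 56 members, among them PMEAMT, AOR, THIC, CRR42, KELP, EXPB3 and AAH.

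In 10 members, all with locus names only, the replicate 1 difference was above -0.1. One of them, AT3G10840, had similar values on all pho1 arrays and on wild type replicate 1, with 83.2, 83.5 and 82.4 in pho1 leaves, against 86.7, 192 and 181 in wild-type leaves. AT4G33660 had 292, 158 and 125 in pho1 leaves, against 302, 315 and 305 in wild-type leaves. Its pho1 replicate 1 value was almost that of wild type, and its other pho1 values were far lower. The others were AT3G22150, AT5G44520, AT1G73655, AT1G80850, AT5G23920, AT4G00895, AT1G15140 and AT3G25660. In 12 members the difference was largest in replicate 1. These were the 4 plastid-encoded genes, THIC, ALDH6B2, AT3G02910, AT1G48750, AT2G39670, AT2G35840, AT2G39850 and 1 of the probe sets of AT2G03390.

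**Figure D4:**
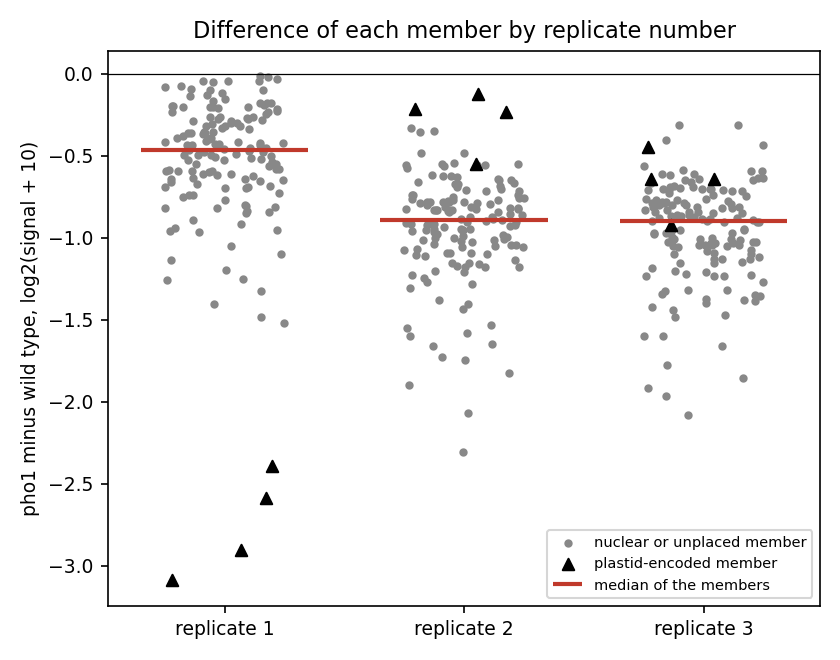
Difference of each of the 149 members, pho1 minus wild type on the scale of log2(signal + 10), within each replicate number, with the median as a red line. Median differences are -0.47, -0.9 and -0.9, and the 4 plastid-encoded members (black triangles) are the lowest points of replicate 1 but lie at or above the median in replicates 2 and 3, except psbD in replicate 3.

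When the rule was applied to replicates 2 and 3 on their own, 133 of the 149 members met it again and 509 probe sets did in all. With only 2 values a group, a lack of overlap is easier to meet. Of the 16 members that did not meet it, 8 had a ratio above 0.67, 7 had one of 0.33 or less and 1 had a wild-type mean under 100. The 8 were psbD, ndhJ, ndhK, ALDH6B2, AT2G39850, AT4G14100, AT1G51110 and AT2G35840. The 7 were EXPA8, AT1G78995, AT4G12830, AT5G53050, AT5G02230, AT2G36145 and AT1G52870, whose ratios there ran from 0.228 to 0.319. The median ratio of the 149 was 0.534 in replicates 2 and 3.

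Replicate 1 was also compared with replicates 2 and 3 over both genotypes, a contrast that the rule did not use, with genotype in the fit (limma over all 15922 probe sets). In this test 8 members, or 5.37%, were higher in replicate 1 and 2, or 1.34%, were lower. Over all tested probe sets these shares were 4.68% and 5.80%, and over the named bright probe sets 8.08% and 5.44%. The rule demands groups without overlap, which limits how far replicate 1 can depart from the others of its group. Nothing about the members is therefore read from these shares. At an unadjusted p under 0.05, 26 members were higher and 11 lower. The share of all probe sets at this threshold is not given, so nothing is read from counts at it. The higher members were AT5G53050 (log2 difference 0.89, limma adjusted p = 0.0198), AT5G02230 (0.86, limma adjusted p = 0.0341), AAH (0.75, limma adjusted p = 0.036), AT1G73920, AT1G22160, AT1G52870, AT1G64360 and AT1G06690. The lower ones were AT1G78020 (-0.98, limma adjusted p = 0.0143) and AT2G39670 (-0.77, limma adjusted p = 0.018). In each of these 10 genes both genotypes shifted the same way between replicate numbers. With 1 array left out the number of members that passed was between 0 and 26, and it was 0 without pho1 replicate 2 and 0 without wild type replicate 3, where 24 and 25 members had an unadjusted p under 0.05 (limma). Over all 15922 probe sets 255 and 329 passed in these 2 fits, against 1668 with all arrays.

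Only 8 members were in any of 26 gene lists for leaf and stress functions, and 19 lists held none, of which 2 (organelle RNA processing and uncharacterised) had no named probe set with a wild-type mean of 100 or more and so could hold none. The cell wall list had 3 of its 11 named bright probe sets among the members (EXPA8, EXPB3 and TBL26), the starch list 1 of 3 (PWD, also the 1 of 5 of the kinase list), the membrane lipid list 1 of 3 (PMEAMT), the chaperone list 1 of 3 (Cpn60beta4), the proteolysis list 1 of 34 (MAP1D) and the P450 and glycosyltransferase list 1 of 19 (BGLU40). Over all named bright probe sets 4.53% were members. Lists with no member included the nuclear genes of the photosynthetic light reactions (0 of 8), the Calvin cycle and photorespiration (0 of 5), chlorophyll, carotenoid and isoprenoid synthesis (0 of 4), redox proteins (0 of 19), transcription factors (0 of 10), chromatin and cell cycle (0 of 10), aquaporins and transporters (0 of 8) and cold, drought and abscisic acid (0 of 7). These lists depend on full gene names, which most members lack; LrgB and HAT2 for example match none.

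Second probe sets were available for few members. AT2G03390 had 2 member probe sets with ratios of 0.579 and 0.665, so the gene is counted once among the 148. For AT1G51110 the other probe set had a ratio of 0.662 and for AT1G01320 one of 0.646, close to the members' 0.67 and 0.626, but the groups overlapped there. For AT2G35450 it was 0.764, against 0.626. For AT2G32560 the other probe set had a wild-type mean of 6.53 and is too dim to compare. By locus name, 36 members lay on chromosome 1, 27 on chromosome 2, 22 on chromosome 3, 23 on chromosome 4, 36 on chromosome 5 and 4 in the plastid genome, and 1 had no locus. In percent this is 24.2, 18.1, 14.8, 15.4 and 24.2 for chromosomes 1 to 5, against 24.5, 14.7, 21.1, 14.3 and 23.1 of the 3292. In the gene order of TAIR10.1, members were direct neighbours in 2 cases: ndhJ with ndhK, and AT2G03390 with AT2G03420.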

How the data were processed

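Each of the 6 ATH1 arrays carried biotin-labelled RNA from 1 rosette leaf sample. The deposited values are linear intensities per probe set; the submitters' processing notes name MAS5, without a version. Deposited intensities of each array had been brought to a common level, with trimmed means (2% off each end) of 100.01. Precision is limited by how few arrays there are.

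The members and the lists were chosen with earlier results of these data known. The membership rule was applied to the values as deposited. Of 22746 probe sets other than the 64 controls, 13513 had 1 gene, 503 several and 8730 none listed; names came from the platform annotation, updated through RefSeq genes of TAIR10.1. For tests, arrays were scaled to the mean trimmed mean, 10% of it was added before log2, and the 15922 probe sets above the 30th percentile of mean log2 signal were fitted with limma 3.58.1 in R 4.3.3 (lmFit, then eBayes with trend; two-sided, unblocked, Benjamini-Hochberg, threshold 0.05). The fit was tested on simulated data. Figures used matplotlib 3.10.9.

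Deviations of same-numbered arrays from their group means correlated at 0.42, 0.217 and 0.386 for replicates 1, 2 and 3. The numbers were therefore used to pair the arrays in differences by replicate number and in the block alternative. This pairing comes from the values, not the labels, and the main limma fit was left unblocked. The pairing is not clear-cut, since pho1 replicate 2 correlated more with wild type replicate 3 (0.33) than with wild type replicate 2 (0.217). No pair of arrays was identical, and arrays of 1 group correlated at 0.922 to 0.977. Arrays within a group and replicate numbers were left out in turn, and scaling, offset, filter, variance model and the limits of the rule were varied. Values on every array are given by fixed rules: the 12 lowest ratios, the 8 highest wild-type means, up to 3 members per list and the 3 members nearest each bound. The other members with a symbol were added because they have a symbol, and further genes (ndhC, AT3G10840, AT4G33660) were chosen after their values were seen. An entry of the proteolysis list that matched letters inside other words was corrected after matching. Promoter motifs were planned but not analysed here, as no sequences were used.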

Additional observations from a re-analysis of the deposited data

How the results depend on the processing

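The median log2 difference of the 149 members was -0.74 and lay between -0.65 and -0.9 under all 12 alternatives tried for it. Single genes were followed for 42 members, those given by the fixed rules or for their gene symbol. Members named for other reasons only, such as AT3G10840 and AT4G33660, were left out. Of 504 differences under alternatives, 0 changed sign. The rule put every pho1 value below every wild-type value, so leaving out arrays or changing the offset could not change a sign. The replicate block cannot move a difference in this balanced design. Nothing is therefore read from the lack of sign changes. Of the 504, 502 moved by less than the spread between arrays. Those that moved further did so in replicates 2 and 3 only: AT4G12830 (-1.91) and ndhE (-0.6). For psbD, ndhJ and ndhK that spread includes the low pho1 replicate 1 value, so the comparison says little: in replicates 2 and 3 their differences were -0.52, -0.43 and -0.34, against -1.38, -1.15 and -1.19 over all arrays.

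The number of members passing limma, 18, was 8 without a filter on dim probe sets, 145 with array weights, 70 with the replicate number as a block, 136 in replicates 2 and 3 only (chosen after the data had been seen) and 0 to 79 with 1 array left out. Over all tested probe sets the share that passed was 0.345% in the main fit, 0.114% without the filter and 11.3% with array weights. It was 1.69% with the block, 9.26% in replicates 2 and 3 only and 0.0188% to 1.76% with 1 array left out. The cause of these changes was not tested. The number of members by the rule, 149, was 86 with 50 added in the ratio, 99 with a wild-type mean of 200 or more, 509 in replicates 2 and 3 only, and 114 to 417 with 1 array left out; 104 to 137 of the 149 were kept in the latter cases. It was 344 without wild type replicate 1 and 417 without pho1 replicate 1. The 10 members that differed between replicate 1 and the others were 3 without a filter and 0 to 26 with 1 array left out. Over all probe sets 1668 of 15922 differed in the main fit and 961 of 22746 without a filter. With 1 array left out 255 to 1816 of 15922 did.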

Other observations

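Many probe sets have no gene listed and could not be members. Of these, 3173 had a wild-type mean of 100 or more, and 140, or 4.41%, met the numeric part of the rule, against 4.53% of the probe sets with 1 gene. Their lowest ratio was 0.336. Within groups, the median coefficient of variation of the members was 22.0% in pho1 and 13.9% in wild type. Over the 3292 named bright probe sets it was 16.7% and 15.7%. These spreads come from the arrays that chose the members and are a description.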
